A study of Mus musculus with 6 samples.

Results

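The ON bipolar cell light-signal cascade is represented here by 10 genes, Grm6, Trpm1, Gpr179, Nyx, Lrit3, Gnao1, Rgs7, Rgs11, Pcp2 and Prkca, chosen by name from the 49997 genes of the deposited table. All 10 were found there, and all 10 passed the filter on low values. The comparison was between 3 mouse retinas labelled Samd7 knockout (-10A) and 3 wild-type retinas labelled c57Bl6/j, with 1 retina per library of polyadenylated RNA. The former were collected on postnatal day 31, the latter on postnatal day 36, and all came from males, so that age and genotype cannot be told apart. The labels do not explain -10A, and they name neither the strain background of the knockout nor whether retinas sharing a group were from different mice, and p-values therefore measure the spread between these retinas.

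ON bipolar cells are the retinal interneurons that depolarise when light comes on. In the dark, photoreceptors release glutamate onto the receptor mGluR6 at the tips of ON bipolar dendrites, and the receptor, through the G protein Go, keeps the cation channel TRPM1 shut. Light lowers glutamate release, the RGS proteins switch Go off, and the channel opens. Loss of the receptor, the channel or the proteins that assemble them causes congenital stationary night blindness in humans.

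Differences across these 10 genes were small in the retinas labelled Samd7 KO. Other genes of the cascade and its partners, described below, ranged from -0.77 (Rgs9bp) to 2.07 (Gnb3) on the log2 scale. Samd7 encodes a protein that acts in photoreceptor nuclei. Of the 10 genes, 1 rose (Gnao1, 1.22-fold), 1 fell (Pcp2, 1.29-fold) and 8 did not pass the test. Grm6 and Trpm1, the receptor and the channel, had log2 fold changes of 0.20 and 0.27 and did not pass. The median log2 fold change of the 10 was 0.06, against 0.0018 over all 20277 genes tested, with 5 of the 10 above 0. Every one of the 10 had a 95% interval within a log2 fold change of -1 to 1, as did 80.1% of all genes tested. The groups did not overlap for 4 of the 10, near the 31.1% of all genes tested. The test was limma-trend on log2(value + 1), where a value is a gene's read count divided by a size factor for its library, and a gene was called at a Benjamini-Hochberg adjusted p under 0.05. That test called 12% of all genes, 6.79% as higher and 5.21% as lower, against which the 2 of 10 called here are read, and a single gene more or less moves that share widely. The count was 1 (Gnao1) without the library labelled KO 2, and 0 without KO 3, wild type 2 or wild type 3. In whole-retina RNA, fewer cells of a type and less RNA per cell cannot be told apart.

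The libraries held 44.2 to 62.8 M reads assigned to genes. Samd7 itself had 57837, 45755 and 44932 normalized reads under the knockout label and 6349, 8141 and 8122 in wild type, 6.57-fold higher (limma adjusted p = 1.54e-08). The labels do not state whether this allele keeps its transcript, and the reason for the higher level was not tested. Every direction below is that of libraries so labelled. The library labelled Samd7 KO 2 was most often the lowest or the highest over all genes tested, with wild type 2 next. Deviations from the mean of the 6 libraries were correlated with transcript length and with GC content (Spearman, 18216 genes). The correlations were 0.36 with length and -0.38 with GC content for KO 2. Wild type 2 had -0.38 with length and wild type 1 had 0.33 with GC content. The remaining correlations lay between -0.18 and 0.21. KO 2 was the lowest or the highest library for 7 of the 10 cascade genes, and for 50.4% of all genes tested. Wild type 2 was the lowest for 5 of the 10 and the highest for 2, against 20.6% and 18.2% of all genes tested. Where a call described below changed without KO 2, the value without it is given there.

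Promoters show the 250 bases before a transcription start of the receptor gene, the channel gene and an assembly gene, from RefSeq on GRCm38.p6. Grm6 lies at chr11:50850435-50850684 on the plus strand, Trpm1 at chr7:64153585-64153834 on the plus strand, and Lrit3 at chr3:129804137-129804386 on the minus strand. No GENCODE exon fell in these windows. The Grm6 window lies inside the RefSeq span of the gene, which begins at 50850369, and upstream only of the transcription start used here. Capitals mark matches to TAATCC and TAATCT, the core sites of the homeodomain factors OTX2 and CRX, searched on both strands.
Grm6: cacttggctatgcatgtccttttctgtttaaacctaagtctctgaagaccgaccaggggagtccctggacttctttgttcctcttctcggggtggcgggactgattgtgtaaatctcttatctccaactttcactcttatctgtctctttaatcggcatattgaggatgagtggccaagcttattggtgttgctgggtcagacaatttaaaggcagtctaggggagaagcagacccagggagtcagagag
Trpm1: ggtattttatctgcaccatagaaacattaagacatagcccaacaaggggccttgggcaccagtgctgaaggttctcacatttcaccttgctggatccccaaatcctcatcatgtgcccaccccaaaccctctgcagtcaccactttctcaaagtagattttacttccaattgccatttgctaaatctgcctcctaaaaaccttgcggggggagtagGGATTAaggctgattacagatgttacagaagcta
Lrit3: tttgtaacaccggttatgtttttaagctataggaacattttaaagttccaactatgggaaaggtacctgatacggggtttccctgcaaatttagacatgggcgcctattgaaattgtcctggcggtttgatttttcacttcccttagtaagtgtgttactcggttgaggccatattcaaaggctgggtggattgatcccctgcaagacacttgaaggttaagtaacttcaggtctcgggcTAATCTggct
The Trpm1 window held TAATCC on the minus strand, 34 bases before the start, and the Lrit3 window held TAATCT 10 bases before the start. The Grm6 window held neither. TAATCC was in 6.25% and TAATCT in 7.31% of the 32851 mouse promoter windows of the same length. Of the 10 cascade genes, 9 had at least 1 window in the table (13 windows in all, Pcp2 with 4 and Trpm1 with 2), and the only other match was TAATCT at the third start of Pcp2. The promoter windows of Gnao1, Prkca and Rgs7 had 76.4%, 76.8% and 72.4% G and C, while Grm6, Trpm1, Gpr179, Nyx and Lrit3 had 43.2% to 58.8%, against a median of 52.4% over all windows.

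The receptor gene Grm6 (chromosome 11, 50850369 to 50866208, GRCm38) had 6237, 6147 and 6408 normalized reads under the KO label (libraries 1, 2 and 3), and 5882, 5044 and 5410 in wild type 1, 2 and 3. All 3 libraries labelled KO lay above all 3 wild-type libraries, an order shown by 31.1% of all genes tested when both directions are counted. The means were 6264 ± 132 and 5446 ± 420 (SD, n = 3 each), 1.15-fold higher (log2 fold change 0.20, SE 0.08, 95% interval 0.04 to 0.37, limma adjusted p = 0.106). The difference did not pass after adjustment over the table. Gm12660, on the opposite strand, shares 599 exonic bases with Grm6.

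Nyx, Lrit3 and Gpr179 encode the proteins that hold the receptor complex together. Nyctalopin, the product of the X-linked gene Nyx (chromosome X, 13461090 to 13492820), is a leucine-rich repeat protein needed for TRPM1 at the dendritic tips. Nyx had 851, 1086 and 992 normalized reads under the KO label and 877, 838 and 948 in wild type, and the groups overlapped (0.13 on the log2 scale with a 95% interval of -0.11 to 0.37, adjusted p = 0.491 by limma). Lrit3 (chromosome 3, 129783941 to 129804136), a leucine-rich repeat protein that acts with nyctalopin, had 996, 1260 and 1182 under the KO label and 1273, 1131 and 1230 in wild type. Its groups overlapped as well, and its log2 fold change of -0.09 (with 0.15 and -0.32 as 95% limits, adjusted p = 0.663 by limma) turned to 0.0121 without KO 1. Gpr179 (chromosome 11, 97332109 to 97352356) encodes the orphan receptor that anchors the RGS proteins. It had 3097, 3065 and 3253 under the KO label and 3186, 2644 and 2710 in wild type, where wild type 1 stood among the KO-labelled libraries (0.15 on the log2 scale with a 95% interval of -0.05 to 0.34, adjusted p = 0.326 by limma).

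The channel gene Trpm1 (chromosome 7, 64153835 to 64269772) had 8234, 11053 and 9851 normalized reads under the KO label and 8308, 7671 and 7987 in wild type. KO 2 and KO 3 lay above every wild-type library, and KO 1 lay just below wild type 1. The means were 9713 ± 1415 and 7989 ± 318 (SD, n = 3 each), 1.22-fold higher (log2 fold change 0.27, SE 0.10, 95% interval 0.06 to 0.48, limma adjusted p = 0.0947). Without KO 2 the log2 fold change was 0.17 (limma adjusted p = 0.232), and without KO 1 it was 0.39 (limma adjusted p = 0.00594), so that 1 library decided the call. Trpm1 is also expressed by pigment cells. Markers of the retinal pigment epithelium were lower under the KO label, 5 of 8 by test (4 without KO 2) and 0 higher. That is 62.5%, against 12% of all genes tested. These markers had a median log2 fold change of -1.16, with none of the 8 at 0. Their summed level was 26424 to 30902 against 30523 to 35275 normalized reads, most of it from Rlbp1 (log2 fold change -0.02), which Müller glia also express. The other 7 summed to 1229 to 2265 against 3776 to 6173. Their part in the Trpm1 level was not tested.

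**Figure D1:**
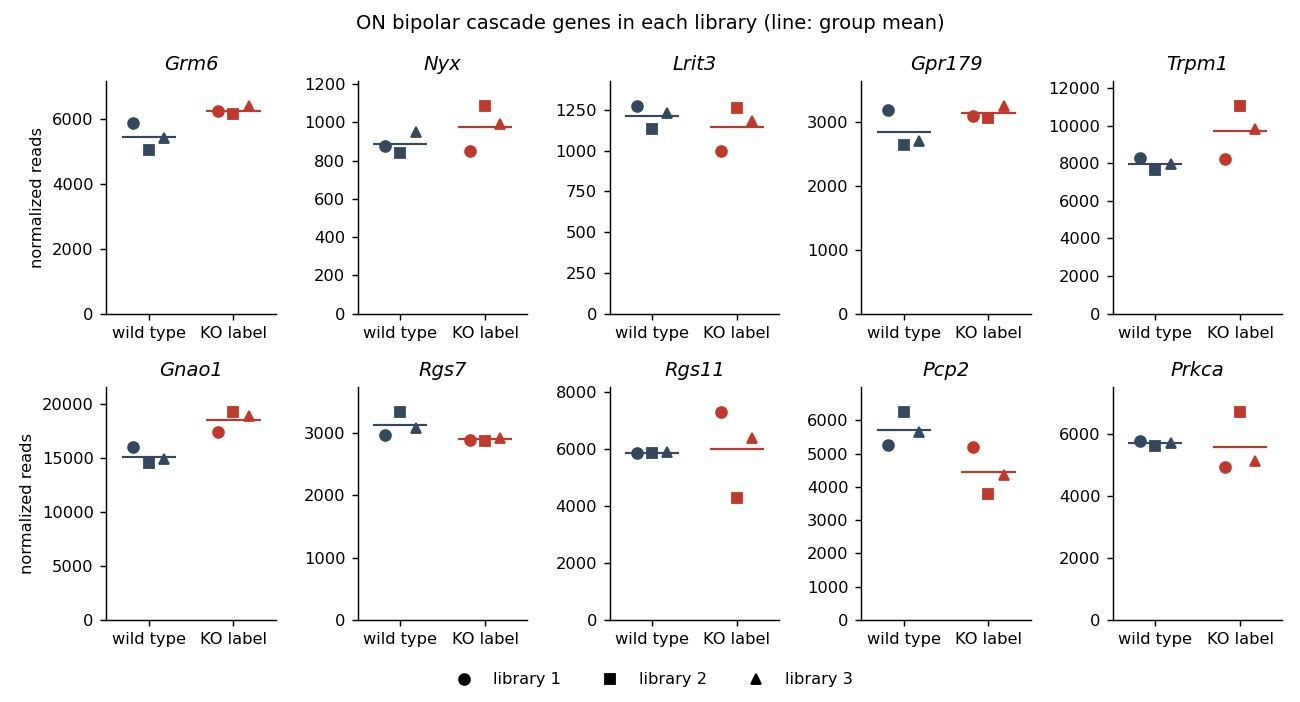
Normalized reads (vertical axis, from 0, a scale of its own in each panel) of the 10 cascade genes in the 3 wild-type libraries and the 3 libraries labelled Samd7 KO, with the library number as the symbol and the group mean as the line. Gnao1 and Pcp2 passed the test, and the points of Rgs11, Prkca, Pcp2 and Trpm1 had the widest relative spread under the KO label, with KO 2 at one end.

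Gnao1 (chromosome 8, 93810153 to 93969388), the alpha subunit of Go that couples mGluR6 to the channel, was the cascade gene that rose. It had 17410, 19268 and 18935 normalized reads under the KO label and 16010, 14514 and 14909 in wild type. The groups did not overlap, as for 31.1% of all genes tested. The means were 18538 ± 991 and 15144 ± 775 (SD, n = 3 each, log2 fold change 0.29, SE 0.07, 95% interval 0.14 to 0.44, limma adjusted p = 0.0157). The call held without KO 2 (limma adjusted p = 0.0336) but ended without KO 3 (0.0729), wild type 2 (0.0816) or wild type 3 (0.0916), at log2 fold changes of 0.26 to 0.28. With each library's trend with transcript length removed, the log2 fold change was 0.20 (limma adjusted p = 0.0390). Gnao1 is expressed by many neurons, amacrine cells among them. Of 8 amacrine cell markers, 0 rose and 1 fell by limma (Th, tyrosine hydroxylase of dopaminergic cells, 1.48-fold). That is 12.5%, against 12% of all genes tested. Of the same 8 markers, 2 had an unadjusted p under 0.05, as did 26.5% of all genes tested, and edgeR, DESeq2 and limma-voom also called Th and no other. The summed level of these markers was 40346 to 44382 normalized reads under the KO label and 40172 to 44798 in wild type, with none at 0. The part of amacrine cells or of other neurons in the Gnao1 level was not tested.

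The RGS genes, whose products speed the return of Go to its resting state, did not pass. Rgs7 (chromosome 1, 175059076 to 175492862) had 2899, 2881 and 2925 normalized reads under the KO label and 2969, 3341 and 3085 in wild type. All KO-labelled libraries lay below all wild-type libraries, by a small margin (-0.11 on the log2 scale with a 95% interval of -0.28 to 0.06, adjusted p = 0.408 by limma). Groups without overlap were found for 31.1% of all genes tested. Rgs11 (chromosome 17, 26202527 to 26211324) had 7300, 4276 and 6386 under the KO label and 5874, 5868 and 5890 in wild type. The coefficient of variation of Rgs11 was 25.9% among the KO-labelled libraries and 0.198% among the wild-type libraries. Counting alone gives 1.56% in KO 2, the library with the fewest Rgs11 reads, and less in the others. In each wild-type library it still exceeds 0.198%, so that the wild-type value understates the spread. KO 2 was the lowest library of Rgs11 and KO 1 the highest, and the wild-type libraries lay between them. The difference of Rgs11 was -0.01 on the log2 scale (-0.34 to 0.32 as 95% limits, adjusted p = 0.980 by limma) and changed sign with other settings, reaching 0.22 (limma adjusted p = 0.0909) without KO 2. Arhgdig overlaps Rgs11 on the opposite strand by 138 exonic bases, and as no source used here states the strand setting, reads there may belong to either gene.

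Pcp2 and Prkca stand beside the cascade as its modulators. Pcp2 (chromosome 8, 3623369 to 3625547), a small GoLoco protein of rod bipolar and Purkinje cells that binds the alpha subunit of Go, was the cascade gene that fell. It had 5193, 3776 and 4353 normalized reads under the KO label and 5254, 6248 and 5649 in wild type. The groups did not overlap, as for 31.1% of all genes tested, although KO 1 and wild type 1 differed by little. The means were 4441 ± 713 and 5717 ± 500 (SD, n = 3 each), 1.29-fold lower (log2 fold change -0.37, SE 0.11, 95% interval -0.61 to -0.13, limma adjusted p = 0.0481). This call was at the edge of the threshold. It ended without KO 2 (log2 fold change -0.26, limma adjusted p = 0.119), KO 3 (0.130), wild type 2 (0.191) or wild type 3 (0.139), and with edgeR and TMM factors (edgeR adjusted p = 0.0510). Pet100, a gene of cytochrome oxidase assembly, overlaps Pcp2 on the opposite strand by 941 exonic bases, so that reads of this pair may not be separated either. Pet100 had 2044, 960 and 1518 under the KO label and 1650, 2194 and 1990 in wild type, with KO 2 lowest and wild type 2 highest as for Pcp2 (log2 fold change -0.42, limma adjusted p = 0.229).

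Prkca (chromosome 11, 107933387 to 108343888) encodes protein kinase C alpha, the classical marker of rod bipolar cells. It had 4925, 6708 and 5124 normalized reads under the KO label and 5762, 5607 and 5725 in wild type. KO 2 was above and KO 1 and KO 3 were below all wild-type libraries. The difference was -0.04 on the log2 scale (-0.27 to 0.19 as 95% limits, adjusted p = 0.841 by limma), became 0.0146 with scaling to total reads, 0.0413 without KO 1 and 0.0127 without KO 3, and was -0.18 without KO 2 (limma adjusted p = 0.103).

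In the authors' deposited table, the log2 fold change was 0.29 for Gnao1 (adjusted p = 0.00799), -0.36 for Pcp2 (adjusted p = 0.0186), 0.28 for Trpm1 (adjusted p = 0.0602) and 0.20 for Grm6 (adjusted p = 0.123), from DESeq2. These come from the same libraries and are no separate support.

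**Figure D2:**
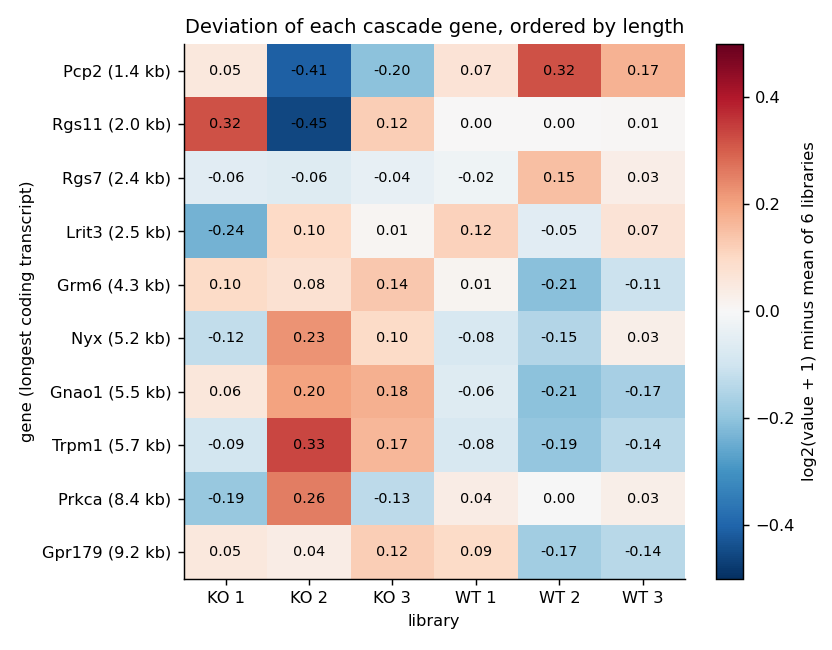
Deviation of log2(value + 1) from the mean of the 6 libraries (colour and printed value) for each cascade gene, with rows ordered by the length of the longest coding transcript and columns by library. In KO 2 the shortest genes, Pcp2 and Rgs11, were at -0.41 and -0.45 while Trpm1, Prkca, Nyx and Gnao1 were at 0.33, 0.26, 0.23 and 0.20. The order was not strict, since the longest gene, Gpr179, was at 0.04 and the short Lrit3 at 0.10.

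Within the cascade the libraries did not move all genes together. KO 2 held the highest value of 4 genes (Trpm1, Nyx, Gnao1 and Prkca, with transcripts of 5.18 kb or longer) and the lowest of 3 (Pcp2, Rgs11 and Rgs7, 2.43 kb or shorter). Wild type 2 held the lowest value of 5 genes (Grm6, Nyx, Gpr179, Gnao1 and Trpm1) and the highest of Pcp2 and Rgs7. These 5 have transcripts of 4.33 kb or longer. With the length trend of each library removed, the log2 fold changes of Grm6, Trpm1, Gpr179 and Nyx were 0.13, 0.18, 0.03 and 0.05, and 0 of these 4 passed the limma test. With the GC trend removed, a choice made after seeing the data, Grm6 passed at 0.28 (limma adjusted p = 0.0198).

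The tested genes whose pattern over the 6 libraries was nearest to Grm6, by the root mean square difference of centred log2(value + 1), were Chpf, Acad9 and Cnpy4 (0.0190, 0.0197 and 0.0228, against a median of 0.224 over all other tested genes). Gpr179 was the nearest cascade gene to Grm6 and stood at rank 63 (0.0453). Nearest to Trpm1 were Uggt1, Gucy1a1 and Rabgap1 (0.0125, 0.0236 and 0.0279, median 0.269), and Gnao1 was its nearest cascade gene at rank 562 (0.0821).

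Levels of different genes were set side by side per kilobase of the longest coding GENCODE transcript, in wild type (SD, n = 3 each). Pcp2 came first at 3951 ± 346 normalized reads per kb, followed by Rgs11 at 2930 ± 5.81 (an SD below counting error) and Gnao1 at 2741 ± 140. Trpm1 (1399 ± 55.7), Rgs7 (1288 ± 78.3) and Grm6 (1258 ± 97.0) came next, and the ranges of these 3 overlapped. Prkca had 678 ± 9.59, Lrit3 493 ± 29.7, Gpr179 309 ± 32.1 and Nyx 171 ± 10.8 normalized reads per kb. The ranges of these last 4 did not overlap. The receptor gene thus stood above each of the 3 assembly genes in level per kb. The order of the first genes depends on the isoform: per kb of the median coding transcript Pcp2 had 11123, Gnao1 8211, Trpm1 3439 and Rgs11 2931. Under the KO label, per kb of the longest transcript, Gnao1 (3355 ± 179) came first, ahead of Pcp2 (3069 ± 493) and Rgs11 (2985 ± 773), and the ranges of these 3 genes overlapped.

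The other genes of the cascade and its trans-synaptic partners, many of which photoreceptors also use, included larger changes. Of 13 tested, 3 rose and 3 fell, while 7 missed the threshold, with a median log2 fold change of 0.01. The share called was 46.2%, against 12% of all genes tested. Gnb3, the G protein beta subunit shared by ON bipolar cells and cones, had 181282, 134487 and 173602 normalized reads under the KO label against 36090, 39756 and 39676 in wild type. This was a 4.24-fold rise (log2 scale 2.07 with an SE of 0.10, limma adjusted p = 4.62e-08). Gng13, the gamma subunit that pairs with it in ON bipolar cells, had 9541, 8254 and 8328 against 4269, 5039 and 5054, a 1.82-fold rise (log2 scale 0.86 with an SE of 0.09, limma adjusted p = 4.50e-05). Every KO-labelled library lay far above every wild-type library for both genes. The third riser was Lrit1, a leucine-rich repeat protein of the photoreceptor synapse (1.46-fold, limma adjusted p = 0.00670).

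Rgs9bp, Gnb5 and Elfn1 were the partners that fell. Rgs9bp, the membrane anchor of RGS9 in photoreceptors and of RGS11 in ON bipolar cells, had 11724, 15863 and 12716 normalized reads under the KO label and 22878, 23459 and 21764 in wild type, 1.69-fold lower (log2 fold change -0.77, SE 0.10, limma adjusted p = 2.55e-04). Gnb5, the beta subunit bound to RGS7, RGS9 and RGS11, was 1.32-fold lower (34371 ± 3750 against 45527 ± 980, SD, n = 3 each, limma adjusted p = 0.00364). Elfn1, which reaches across the cleft to mGluR6, was 1.30-fold lower (limma adjusted p = 0.0320), though not when KO 2 (limma adjusted p = 0.0867) or any one wild-type library was left out, nor with the GC trend removed. Egflam (pikachurin), which ties GPR179 to dystroglycan of the photoreceptor, missed the threshold (0.31 on the log2 scale, interval 0.09 to 0.54, limma adjusted p = 0.0719). It passed in 5 of 20 alternatives. These were without KO 1 (limma adjusted p = 0.00590), without wild type 1 (0.0372), with DESeq2, with limma-voom and with total-read scaling. Cone markers rose in 4 of 9 cases and fell in 1 (55.6% called), with a summed level of 526833 to 545224 normalized reads under the KO label and 131760 to 135190 in wild type. Most of that difference lay in Opn1sw, the short-wavelength cone opsin, with a mean of 416374 against 43705. The other 8 cone markers summed to 116302 to 130242 against 87227 to 92972, and Opn1mw, the middle-wavelength opsin, was the one that fell (log2 fold change -1.30). Rod markers fell in 6 of 8 (7 without KO 2) and rose in 0, with 3033887 to 3303640 against 4682923 to 5079897. That is 75% called, against 12% of all genes tested. The rod marker Sag had a log2 fold change of 0.19 (limma adjusted p = 0.0575). It was called higher with edgeR (TMM and RLE), limma-voom and total-read scaling, but not with DESeq2 or upper-quartile factors. None of these cone and rod markers was at 0, and their part in the levels of Gnb3, Gng13, Rgs9bp and Gnb5 was not tested.

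**Figure D3:**
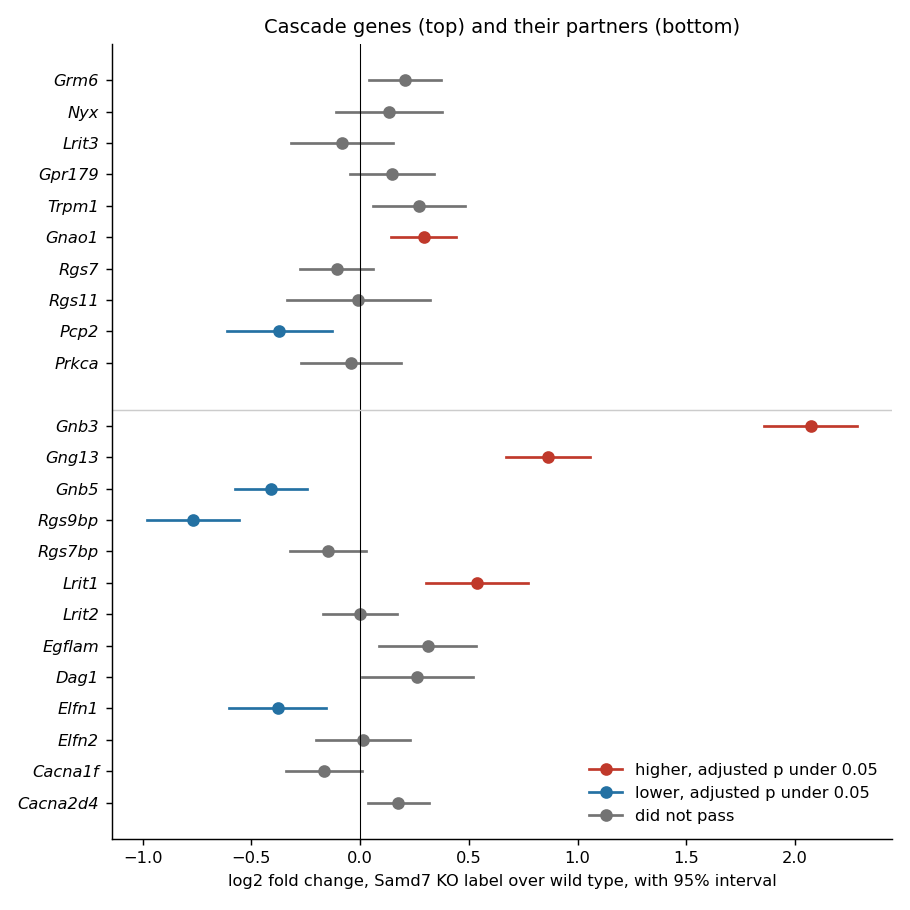
Log2 fold change of the libraries labelled Samd7 KO over wild type (horizontal axis) with its 95% interval from limma, for the 10 cascade genes above the grey line and 13 partners below it. The cascade genes lie between -0.37 and 0.29, and the partners between -0.77 (Rgs9bp) and 2.07 (Gnb3).

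Among 14 paralogs of the cascade genes, such as other group III glutamate receptors, RGS proteins and GoLoco proteins, 0 rose and 1 fell (2 without KO 2), with a median log2 fold change of 0.00666. The share called was 7.14%, against 12% of all genes tested. The one that fell was Gpsm2, a GoLoco protein that binds G protein alpha subunits as Pcp2 does, with a mean of 5851 ± 193 under the KO label and 9961 ± 1084 in wild type (SD, n = 3 each), 1.70-fold lower (log2 fold change -0.76, SE 0.08, limma adjusted p = 7.28e-05). Of 7 Purkinje cell markers besides Pcp2, 1 rose and 0 fell, the riser being the homeobox gene En2 (log2 fold change 7.57, limma adjusted p = 2.91e-09). The share called was 14.3%, near the 12% of all genes tested. Some of these markers also stand in the lists of other retinal cells used here, so the count is not particular to Purkinje cells.

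Among transcription factors of bipolar cells, 12 were tested, of which 2 rose, 2 fell and 8 missed the threshold, with a median log2 fold change of 0.08. The share called was 33.3%, against 12% of all genes tested. Prdm8, a factor of rod and some OFF bipolar cells, was 1.26-fold higher (4534 ± 163 against 3609 ± 35.8, SD, n = 3 each), with a limma p of 5.89e-04 that passed after adjustment but not once wild type 3 was left out (adjusted p = 0.0596). Irx6, a factor of OFF cone bipolar cells, was 1.35-fold higher (limma adjusted p = 0.0102) and lost the call without KO 3 (0.0562) or wild type 2 (0.0557). Bhlhe23, needed for rod bipolar maturation, was 1.22-fold lower (3856 ± 70.4 against 4710 ± 174, limma adjusted p = 0.0200), and the homeobox gene Sebox 1.24-fold lower (3235 ± 143 against 4023 ± 205, limma adjusted p = 0.0199). The call of Bhlhe23 ended without KO 3 or any one wild-type library, and that of Sebox without KO 3, wild type 2 or wild type 3. Isl1, which ON bipolar cells need, was 1.11-fold higher in mean and did not pass (interval -0.02 to 0.31 on the log2 scale, limma adjusted p = 0.242).

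Of 8 rod bipolar markers, with Prkca and Sebox among them, 1 rose, 1 fell and 6 did not pass (25% called, median log2 fold change -0.08). The one that fell was Sebox. Of 12 ON cone bipolar markers, limma called 0, 1 had an unadjusted p under 0.05, and edgeR, DESeq2 and limma-voom called 0 (median log2 fold change 0.00845). Of 12 OFF cone bipolar markers, limma called 0 and 2 had an unadjusted p under 0.05 (median 0.19), while edgeR with TMM factors, DESeq2 and limma-voom each called Tacr3. Over all genes tested, 26.5% had an unadjusted limma p under 0.05. Over the 40 bipolar genes of these lists that are not among the 10, 3 rose and 2 fell, 12.5% against the 12% of all genes. None of these bipolar genes was at 0 in the deposited values.

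**Figure D4:**
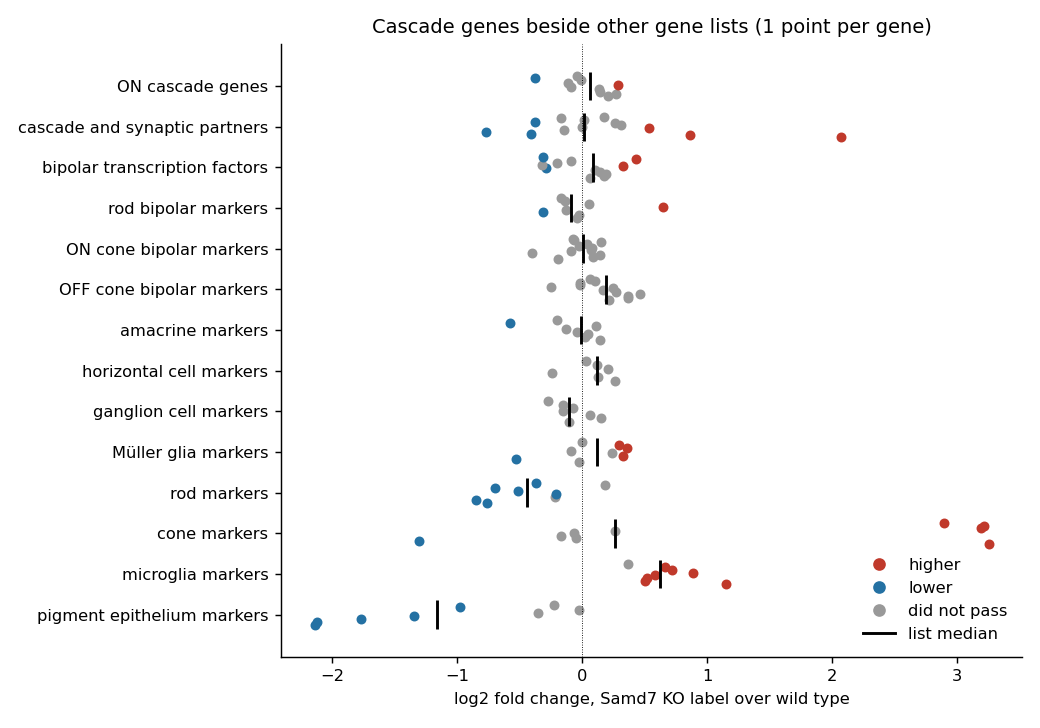
Log2 fold change of each tested gene (points, horizontal axis) in 14 gene lists (rows), with the list median as a black bar and colour for genes that passed the limma test. The cascade and bipolar lists have medians between -0.08 and 0.19, while the medians of rod, microglia and pigment epithelium markers are -0.44, 0.62 and -1.16.

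Other cell types of the inner retina were read the same way. Horizontal cell markers had 0 of 6 called by limma (1 at an unadjusted p under 0.05, and 0 by edgeR, DESeq2 and limma-voom), with a median log2 fold change of 0.12. Ganglion cell markers had 0 of 7 called (2 at an unadjusted p under 0.05, 0 by edgeR and DESeq2 and 1, Thy1, by limma-voom), with a median of -0.10. An unadjusted limma p under 0.05 was found for 26.5% of all genes tested. Müller glia markers rose in 3 of 8 cases and fell in 1 (50% called). Microglia markers rose in 7 of 8 and fell in 0 (87.5% called), with summed levels of 5434 to 6055 normalized reads under the KO label and 3409 to 3914 in wild type. The limma test called 12% of all genes tested.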

How the data were processed

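The authors' deposited table gives, per the file headers and the values, a per-library signal that equals reads per gene over the library's size factor, its means, the authors' log2 fold change, a Wald score, and p-values from DESeq2. The submitters' processing notes name STAR 2.7.3a, HTSeq 0.12.4, cutadapt 3.0, SAMtools 1.9, DRAGEN and DESeq2, and the builds mm10 and GRCm38. What each was used for, and whether counting used strand, is not stated there. Per the labels' protocols, cDNA was amplified for 15 cycles and no molecular identifiers are described, so that copies of a molecule cannot be separated.

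Dividing by the worth of 1 read gave whole numbers for 100% of values above 0 (within 0.01 reads). The filter asked for 10 or more normalized reads in 3 or more libraries. Groups were compared by limma-trend, 2-sided, on log2(value + 1), a scale that understates changes of low genes. Fold changes are ratios of group means. The software was edgeR 4.0.16, DESeq2 1.42.0 and limma 3.58.1 under R 4.3.3, and the limma and edgeR fits were tested on simulated data. Alternatives were DESeq2, limma-voom, edgeR with 3 kinds of factors (upper-quartile, TMM, RLE), total-read scaling, other filters, pseudocounts and threshold, a replicate block, removal of length and GC trends, and leaving out each library. Length was that of the longest coding GENCODE M21 transcript, and positions came from RefSeq.

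The genes and lists were chosen with earlier results of these data known. Named are the 10 cascade genes, Samd7, up to 4 called genes from each cascade or bipolar list, 7 further genes (Gnb3, Gng13, Gnb5, Rgs9bp, Lrit1, Egflam, Isl1) and the nearest patterns. Lists of other cells are given as counts. Pet100, Arhgdig, Tacr3, Thy1, Th, Sag, En2, Rlbp1, Opn1sw and Opn1mw are named for a stated overlap, count or sum, chosen after their values were seen, as was Gm12660. Chi-square per degree of freedom between replicates was 7.20 to 33.5, so no pair was counted as 1 library. Some named results are not reported here.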

Additional observations from a re-analysis of the deposited data

How the results depend on the processing

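Over 20 alternatives, 7 of the 10 cascade genes kept their sign, while Rgs11, Prkca and Lrit3 did not. Rgs11 (-0.01 as reported) turned to 0.0268 and 0.0258 with edgeR (TMM and RLE), 0.0259 with DESeq2, 0.0835 with limma-voom, 0.0484 with total-read scaling, 0.0454 with the length trend removed and 0.0792 with the GC trend removed, the last chosen after seeing the data, and ranged from -0.1696 without KO 1 to 0.2162 without KO 2. Prkca turned to 0.0146 with total-read scaling and ranged from -0.1816 without KO 2 to 0.0413 without KO 1, with 0.0127 without KO 3. Lrit3 ranged from -0.1569 without KO 2 to 0.0121 without KO 1. The count of cascade genes called, 2, became 1 with edgeR (TMM and RLE), 4 with limma-voom (Grm6, adjusted p = 0.0130, and Trpm1, adjusted p = 0.0123, added), 3 with total-read scaling (Gnao1, Grm6 and Trpm1) and with the GC trend removed, and 0 at an adjusted p under 0.01 and with a replicate block. Leaving out single libraries gave 0 to 3, with 0 without KO 3, wild type 2 or wild type 3. All genes called numbered 2432, against 4650 with limma-voom, 1189 at an adjusted p under 0.01 and 1297 to 3214 with single libraries left out (1297 without wild type 3, 1452 without wild type 2, 1453 without KO 3). Of the 2432, 56.6% were higher, against 71.2% with total-read scaling, where the median of all genes moved to 0.0586, and 48.9% with edgeR's upper-quartile factors, where it moved to -0.0317 and more genes were lower (1319) than higher (1264). Bipolar factors called, 4, became 0 at an adjusted p under 0.01, 2 with a replicate block, and 1 to 4 with libraries left out. Rod bipolar markers called, 2, became 1 with total-read scaling, at an adjusted p under 0.01 and with a replicate block, and 1 to 2 with libraries left out. OFF cone bipolar markers called, 0, became 1 with edgeR (TMM), DESeq2, limma-voom and total-read scaling, and 0 to 3 with libraries left out (3 without KO 1). ON cone bipolar markers gave 0 to 1 with libraries left out (1 without KO 1), and partners 5 to 8. The stricter threshold is the cause of its own losses, and the causes of the other moves were not tested. The replicate block called 1624 genes overall. Same-numbered libraries had correlations of deviations of -0.18, -0.13 and -0.01. Deviations from a group mean constrain each other, so these values cannot decide whether the numbers pair the samples, which the labels do not state. Counting error of the cascade genes was at most 3.64% (Nyx, lowest library), and covers reads, not molecules.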
